A study of Mus musculus with 6 samples.

Results

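Constitutive molecular chaperones and the proteins that steer them were followed as one group of 74 genes among the 20323 genes with values. Members were taken by gene symbol. The group takes in the Hsp70 and Hsp110 proteins, Hsp90, the small heat shock proteins, the J proteins of types A, B and C, the subunits of the cytosolic chaperonin and the Bag proteins. Of 87 symbols of these families in the table, 10 were left out by name, among them strongly heat-inducible genes, the mitochondrial Hspa9 and Hspa8, and 3 held no value (Cct8l1, Dnajb8 and Dnajc5g). The 74 genes are called chaperone genes here. RNA was sequenced from GFP-positive hippocampal cells of mice carrying Nestin-CreERT2 and the Rosa26-mGFP reporter, in which tamoxifen-activated Cre under the Nestin promoter marks neural progenitors and what they give rise to. A magnetic sort collected the cells, with 1 mouse stated for each library. All animals, controls included, had been fed the demyelinating agent cuprizone for 10 weeks and then had 4 weeks of recovery. The control group received vehicle, 0.1% BSA in saline, and the treated group received neuregulin-1 beta 1 (Nrg-1β1), each with 3 libraries. The dose stands as 60 µg/kg/day in the series description and with grams in place of micrograms in the sample labels, so its unit is uncertain. No untreated mouse without cuprizone entered the comparison.

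Chaperones bind unfolded stretches of other proteins and release them in a form that can fold. In the Hsp70 cycle a J protein brings a client and stimulates ATP hydrolysis. Nucleotide exchange factors such as the Hsp110 proteins and some Bag proteins open the chaperone again. Hsp90 takes over late folding steps of kinases and steroid receptors, and the ring-shaped chaperonin TRiC/CCT encloses actin and tubulin while they fold. The endoplasmic reticulum has its own set, led by Hspa5 (BiP) and Hsp90b1 (Grp94), whose genes are switched on by the unfolded protein response. Oligodendrocytes, which make large amounts of membrane protein for myelin, and secretory epithelia depend strongly on that set.

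Depth differed widely and bounds what can be said of each gene. Recovered reads per library were 72953034, 1075813 and 47076006 in vehicle 1 to 3 and 567073, 662909 and 1327003 in Nrg-1β1 1 to 3. A single read was worth 0.0605 normalized counts in vehicle 1 and 3 and between 3.04 and 5.17 in the other libraries. Chaperone genes took between 0.252% and 0.418% of the reads of a library, which was as few as 1802 reads in Nrg-1β1 2. At least 10 reads in every library were present for 36 of the 74 genes, and 11 had no read in at least 1 Nrg-1β1 library. Reads of Xist and the Y-linked Ddx3y occurred together in vehicle 1 (3255 and 82) and vehicle 3 (1045 and 1994), and vehicle 2 had 216 and 1. The Nrg-1β1 libraries had at most 3 Xist reads, beside 29, 22 and 15 of Ddx3y in Nrg-1β1 1 to 3. Sex-linked reads were thus not balanced between the groups, and a difference tied to sex cannot be told apart from treatment. Both kinds of reads in 1 library are hard to square with the stated 1 mouse per library, and their source was not tested. Markers of neurons, oligodendrocytes and astrocytes exceeded those of progenitors in every library. The summed normalized counts were 1349 to 1887 for 11 progenitor markers and 92070 to 189369 for 7 oligodendrocyte markers. They were 22130 to 41730 for 7 astrocyte markers and 12065 to 24912 for 8 neuronal markers. RNA with markers of other cell types was thus present under the label of progenitor cells. The lists differ in the number and level of their genes, so the sums do not give the share of each cell type. Because the libraries are bulk RNA, fewer cells of a type and less RNA per cell cannot be told apart.

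No chaperone gene passed the test of a difference between Nrg-1β1 and vehicle. Levels are log2(normalized count + 4) throughout, and differences are Nrg-1β1 minus vehicle on that scale. With limma and Benjamini-Hochberg adjustment over all 20323 genes, 0 of 74 passed an adjusted p of 0.05 in either direction, beside 1.06% of all genes. The count was also 0 with limma-voom on the recovered reads and when any single library was left out. With limma-voom 43 of the 74 could be tested and 1 had an unadjusted p under 0.05. These fits called few genes of any kind, 1 of 6731 with limma-voom and 0 to 56 of 20323 with 1 library left out. Their count of 0 therefore says little about the chaperone genes. At an unadjusted p of 0.05, 8 chaperone genes (10.8%) were lower with Nrg-1β1, beside 6.86% of all genes, and 3 (4.05%) were higher, beside 6.15%. In 13 genes (17.6%) every Nrg-1β1 library lay below every vehicle library, beside 10.4% of all genes, and in 2 (2.70%) every one lay above, beside 7.37%. Of the 13, Cct6b and Hspb7 had no read in any Nrg-1β1 library. Bag2, Hspa12b, Dnajc4 and Dnajc24 had at most 5 reads in each, so these separations rest on few reads. The median difference over the 74 was -0.18 on the log2 scale and 0.03 over all genes. Negative differences made up 47 of the 74, or 63.5%, beside 47.8% of all genes. Centring each library on its own median moved the median over all genes to 0.25 and that over the chaperone genes to 0.04. Centring shifts every gene by the same amount, so it turns signs of small differences by construction and cannot alter the distance between both medians. Only 24 of the 74 had a 95% interval within 1 log2 unit of no change on both sides, so for the others changes of more than that size in at least 1 direction were not excluded by the interval.

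**Figure D1:**
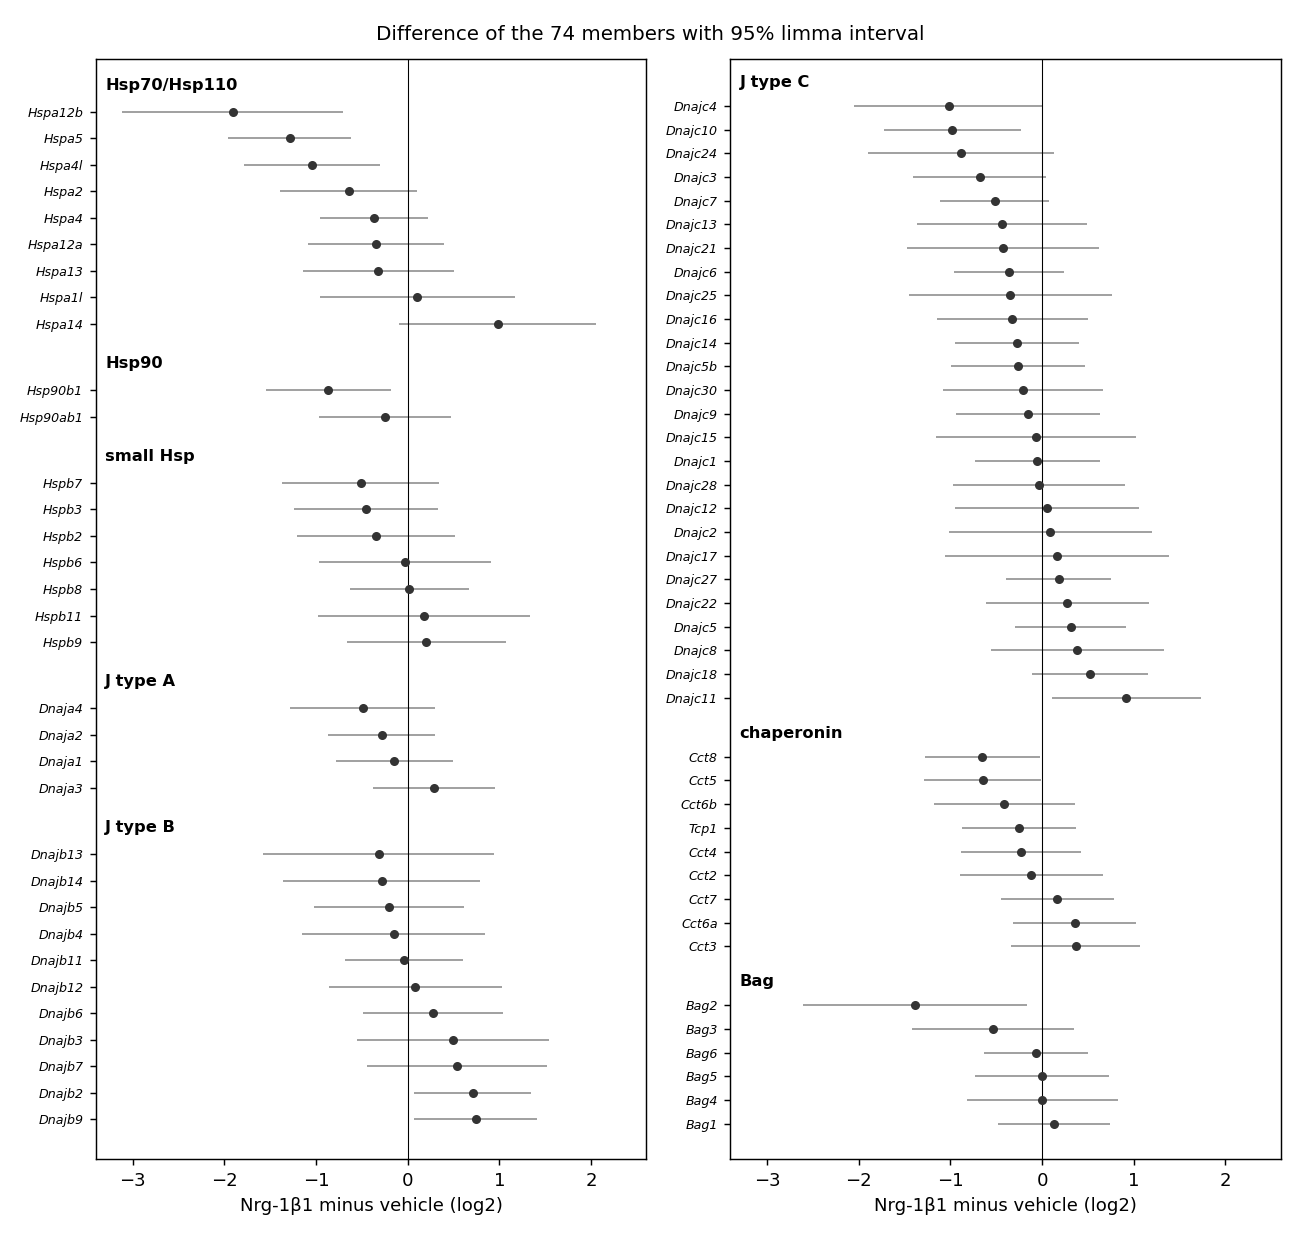
Each point is the limma difference of 1 chaperone gene, Nrg-1β1 minus vehicle in log2 units on the x axis, with its 95% interval as a bar, grouped by family and sorted within it. The points run from -1.91 for Hspa12b to 0.98 for Hspa14, and 47 of the 74 lie left of zero.

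Within the endoplasmic reticulum 8 of 10 chaperone genes had negative differences, with a median of -0.30, and none passed the test. The median was -0.08 without vehicle 3, -0.19 without Nrg-1β1 3 and -0.47 without vehicle 1, and ran from -0.09 after centring to -0.91 with limma-voom on 7 of the 10. After centring and with the depth class of the library as a term (a deep class of vehicle 1 and 3, a shallow class of all others), 6 of the 10 were negative. Hspa5, the Hsp70 of this compartment, came closest of all 74. Its log2 levels were 9.79, 8.87 and 9.98 in vehicle 1 to 3 and 8.61, 8.02 and 8.15 in Nrg-1β1 1 to 3. All 3 vehicle libraries were higher than all 3 Nrg-1β1 libraries, and vehicle 2, the shallow one, lay nearest to them. The difference was -1.29 ± 0.32 (SE) with a 95% interval of -1.95 to -0.62 and an adjusted p of 0.0554 by limma. Reads behind it numbered 14588, 150 and 16616 with vehicle and 75, 50 and 92 with Nrg-1β1. With the depth class term, which leaves vehicle 2 as the only control at the depth of the treated libraries, the difference was -0.61.

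Hsp90b1, the Hsp90 of the same compartment, had log2 levels of 9.90, 9.29 and 10.04 with vehicle and 9.13, 9.29 and 8.21 with Nrg-1β1. The groups touched without overlapping, since vehicle 2 and Nrg-1β1 2 round to the same level. Its difference was -0.87 ± 0.33 (SE), with a limma adjusted p of 0.236 and -0.42 with the depth class term. Dnajc10 (ERdj5), a J protein with disulfide reductase activity that works with Hspa5 in disposing of misfolded proteins, had log2 levels of 6.43, 6.34 and 6.95 with vehicle and 5.66, 5.91 and 5.23 with Nrg-1β1. Its groups were apart as well, on 9 to 11 reads in each Nrg-1β1 library, and the difference was -0.98 ± 0.36 (SE; limma adjusted p 0.216).

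Dnajc3 (p58IPK), a J protein that supports Hspa5 and dampens the kinase PERK, was at log2 levels of 7.92, 8.04 and 8.54 with vehicle and 8.09, 7.70 and 6.66 with Nrg-1β1. Its groups overlapped and its difference was -0.68, drawn down by Nrg-1β1 3. Hspa13, a microsomal Hsp70 relative, was at 5.98, 5.25 and 6.24 and 5.50, 5.78 and 5.23 on the log2 scale, a difference of -0.32 with overlapping groups that turned to 0.26 with the depth class term. Dnajb11 (ERdj3), a soluble Hspa5 partner, was among the steadier genes, at 6.71, 6.55 and 6.85 with vehicle and 6.44, 6.73 and 6.83 with Nrg-1β1. Its difference of -0.04, 0.12 with the depth class term, had a 95% interval of -0.69 to 0.61. Dnajb14, a membrane-anchored J protein, was low, at log2 levels of 4.03, 5.25 and 5.33 and 5.13, 4.61 and 4.01, and its difference was -0.28. Dnajb9 (ERdj4), a stress-induced J protein that holds back the sensor IRE1, stood on the other side. Its log2 levels were 7.0, 6.89 and 6.61 with vehicle and 8.09, 7.59 and 7.04 with Nrg-1β1, every treated library above every control. The difference was 0.74 ± 0.32 (SE; limma adjusted p 0.318), so this J protein and Hspa5 lay on opposite sides of zero without either passing the test.

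**Figure D2:**
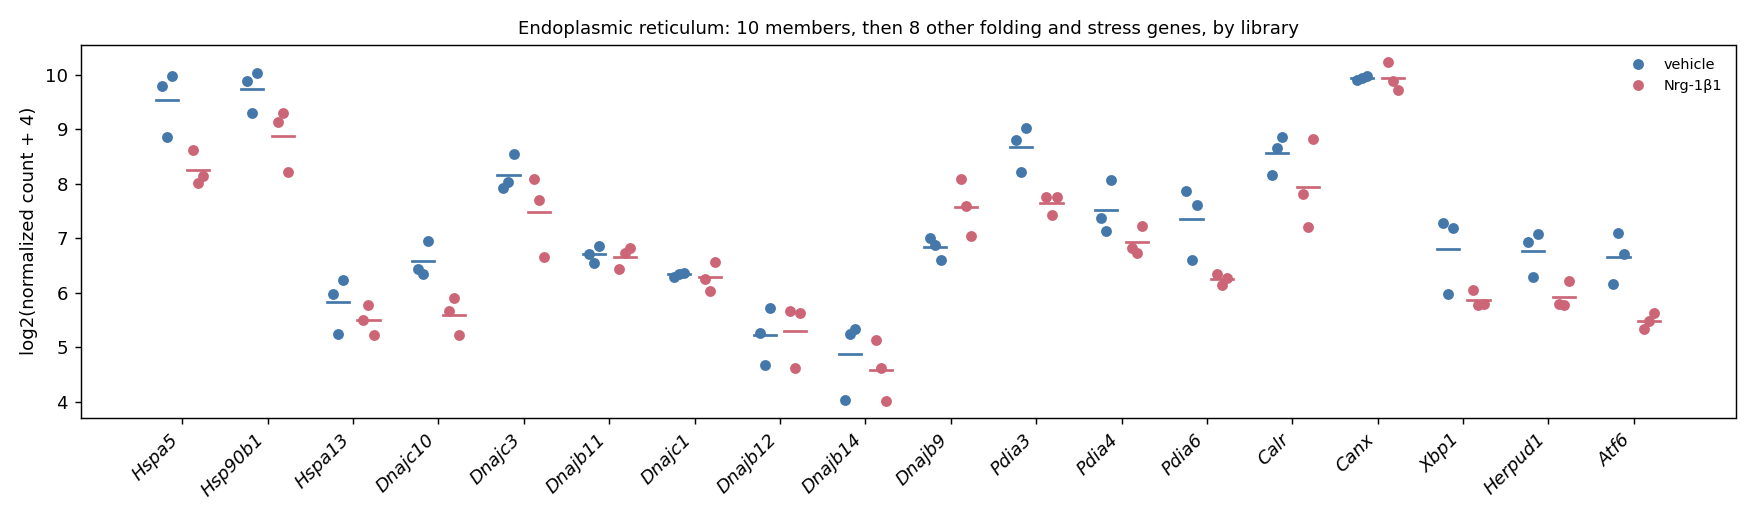
Points are the log2(normalized count + 4) level of 1 library on the y axis, vehicle in blue and Nrg-1β1 in red, with the group mean as a line, for 10 chaperone genes of the endoplasmic reticulum and 8 further folding and stress genes of that compartment. Hspa5 and Dnajc10 show separate groups with vehicle above, Dnajb9 shows separate groups with Nrg-1β1 above, and Canx lies at the same mean in both.

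Promoter sequence gives a feature of these genes that the symbols did not use. Windows from 250 bases before to 50 bases after the start of transcription were taken from RefSeq on GRCm38.p6, and 61 of the 74 genes had at least 1, in 78 windows. The endoplasmic reticulum stress element was searched on both strands as CCAAT and CCACG with 9 bases of any kind between them, and so contains the common CCAAT box. It occurred in 39 of all 32851 windows (0.119%) and in 3 of the 78 chaperone windows (3.85%). Those belonged to Hspa5, Hsp90b1 and Dnajc3, 3 of the 9 windows of chaperone genes of the endoplasmic reticulum. All 3 had negative differences, but so had 8 of the 10 chaperone genes of that compartment, so their sign says nothing about the element. The Dnajb9 window held no match to these letters. Stretches of the 3 windows with the match in capitals, and of Dnajb9 for comparison, are shown 5′ to 3′ on the gene's strand because they hold the element tied to the unfolded protein response. They lie at chr2:34771940-34772089 (plus strand), chr10:86705445-86705659 (minus strand, with matches in both orientations), chr14:118937782-118937931 (plus strand) and chr12:44210069-44210218 (minus strand).
Hspa5: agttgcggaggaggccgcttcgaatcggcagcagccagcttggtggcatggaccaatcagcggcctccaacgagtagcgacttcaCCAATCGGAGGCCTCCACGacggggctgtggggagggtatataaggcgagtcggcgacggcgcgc
Hsp90b1: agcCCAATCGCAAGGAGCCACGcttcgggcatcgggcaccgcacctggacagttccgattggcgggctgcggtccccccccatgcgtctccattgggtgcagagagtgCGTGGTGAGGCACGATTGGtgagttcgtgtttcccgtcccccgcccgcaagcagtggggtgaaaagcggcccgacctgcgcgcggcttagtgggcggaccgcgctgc
Dnajc3: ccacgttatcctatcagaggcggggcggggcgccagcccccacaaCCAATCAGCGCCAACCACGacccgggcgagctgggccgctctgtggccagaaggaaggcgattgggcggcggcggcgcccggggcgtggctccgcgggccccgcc
Dnajb9: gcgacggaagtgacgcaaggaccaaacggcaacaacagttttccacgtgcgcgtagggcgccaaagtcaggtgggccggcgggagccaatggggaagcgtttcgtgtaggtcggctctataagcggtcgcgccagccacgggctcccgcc
The heat shock element was searched on both strands as GAA, TTC and GAA with 2 bases of any kind between neighbours. It occurred in 198 of the 32851 windows (0.603%) and in 2 of the 78 chaperone windows (2.56%), both of Dnajb6. A stretch of Dnajb6 is shown with the match in capitals, at chr5:29735748-29735897 on the plus strand. It is shown because Dnajb6 is the lone gene with this heat-responsive motif among the 61 chaperone genes with a window.
Dnajb6: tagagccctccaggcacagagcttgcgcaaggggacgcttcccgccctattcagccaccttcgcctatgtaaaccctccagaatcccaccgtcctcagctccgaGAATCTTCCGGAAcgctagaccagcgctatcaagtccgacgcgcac
Neither motif match is evidence of binding in these cells.

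Other folding and stress genes of the endoplasmic reticulum, from a list of 18 that are no members of the chaperone group, lay mostly on the same side as Hspa5. Of the 18, 0 passed an adjusted p of 0.05 in limma, 17 had negative differences and 1 was positive, and the median was -0.42 beside 0.03 for all genes. Unadjusted p-values under 0.05 were reached by 5 (27.8%), all with lower levels, beside 6.86% of all genes. Pdia3, a disulfide isomerase for glycoproteins, had a difference of -1.04 ± 0.29 (SE; limma adjusted p 0.0919). Atf6, the membrane-bound sensor of the unfolded protein response, had -1.18, and the disulfide isomerase Pdia6 had -1.11. Xbp1, the factor spliced by IRE1, had -0.94, and Herpud1, a part of the degradation machinery, had -0.84. Canx (calnexin), a membrane lectin chaperone, was at 9.91, 9.94 and 9.99 with vehicle and 10.24, 9.89 and 9.71 with Nrg-1β1. Its difference was 0.00. The promoter window of Canx held the stress element, as did those of Calr, Creld2 and Pdia6. The median of the list ranged from -0.15 with the depth class term to -0.68 with limma-voom on 14 of the 18, and was -0.21 after centring. Of the 18, 11 were negative with the depth class term and 14 after centring, without vehicle 3 or without Nrg-1β1 3. The list was chosen with earlier results of these data known, so it is no independent support for the values of Hspa5.

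Markers of choroid plexus and microglia were lower with Nrg-1β1. The summed normalized counts of 6 choroid plexus markers were 4437, 1516 and 4841 in vehicle 1 to 3 and 160, 128 and 197 in Nrg-1β1 1 to 3, with 2 of the 6 without a read in each Nrg-1β1 library, and 4 of the 6 fell by the limma test. Those of 8 microglial markers were 9135, 5872 and 5795 against 2128, 2661 and 2659, and 5 of the 8 fell by the limma test. All 8 neuronal and all 7 astrocyte markers had positive differences (medians 0.62 and 0.68), none of them past the threshold. On the lower side, 4 of 4 erythroid markers fell by the limma test. All 5 ependymal and all 7 mural cell markers were negative (medians -1.80 and -1.52), with 0 and 1 past the threshold. Of 7 oligodendrocyte markers 6 were negative (median -0.24), with 0 past the threshold. Progenitors and oligodendrocyte progenitors were split, with 5 of 11 and 2 of 4 markers negative. Vehicle 2 had the lowest choroid plexus sum of the vehicle libraries. Vehicle 2 lay below both other vehicle libraries in 6 of the 10 chaperone genes of the endoplasmic reticulum and in 11 of the 18 further genes. The same held for 56.8% of the 74 chaperone genes and 38.4% of all genes, so 6 of 10 is not particular to this compartment. Atf6 was highest in vehicle 2. The microglial sum was lowest in vehicle 3, and vehicle 2 was also the only shallow control. The part of any of these cell types in the endoplasmic reticulum values was not tested.

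In the cytosol the Hsp70 and Hsp110 family had a median difference of -0.37 over 9 genes, Hspa5 and Hspa13 included, with 7 negative and 2 positive. It was -0.61 without vehicle 2, -0.59 without Nrg-1β1 2, -0.61 with the depth class term and -0.15 after centring. Hspa4 (Apg-2) and Hspa4l (Apg-1) are Hsp110 proteins, which act as exchange factors for Hsp70. Log2 levels of Hspa4l were 7.01, 6.64 and 7.57 with vehicle and 6.04, 6.51 and 5.54 with Nrg-1β1, groups that did not overlap. Its difference was -1.04 ± 0.36 (SE; limma adjusted p 0.18) and -0.61 with the depth class term. Hspa4 itself was at 8.01, 7.84 and 8.27 and 7.53, 7.55 and 7.93, with overlapping groups and a difference of -0.37. Hspa2, an Hsp70 best known from the testis and also made in the brain, was at 8.22, 6.77 and 7.98 with vehicle and 6.81, 6.92 and 7.31 with Nrg-1β1, and vehicle 2 lay below all treated libraries. Its difference was -0.64, and 0.25 with the depth class term. Hspa12a, a distant Hsp70 relative abundant in neurons, was at 6.15, 6.96 and 6.58 and 6.04, 6.73 and 5.88, a difference of -0.35 within the spread of the libraries.

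Hspa14, which works at the ribosome on new polypeptides, had the most positive difference of the 74. Its log2 levels were 4.96, 5.25 and 5.49 with vehicle and 7.0, 6.98 and 4.66 with Nrg-1β1. Nrg-1β1 1 and 2 lay above every control while Nrg-1β1 3 lay below every control, so the mean difference of 0.98 ± 0.51 (SE) describes no single treated library. The limma adjusted p was 0.443, and the reads were 448, 11 and 679 with vehicle and 24, 24 and 7 with Nrg-1β1.

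Hspa12b, a relative of Hsp70 expressed mainly in endothelial cells, had the most negative difference and was picked out after its values were seen. Log2 levels were 5.24, 4.28 and 6.56 in vehicle 1 to 3 and 3.20, 3.83 and 3.33 in Nrg-1β1 1 to 3. The groups did not overlap, but the Nrg-1β1 values rested on 1, 2 and 2 reads, against 557, 5 and 1491 with vehicle. The difference was -1.91 ± 0.57 (SE), with a limma adjusted p of 0.116, and -0.83 with the depth class term. Endothelial markers were low in the same libraries. The summed normalized count of 7 such markers was 1099, 525 and 2666 in vehicle 1 to 3 and 82.7, 123 and 122 in Nrg-1β1 1 to 3, all 7 fell by the limma test, and 1 was without a read in Nrg-1β1 1. Both measures ranked the vehicle libraries in the same order, vehicle 3 above vehicle 1 above vehicle 2. The part of endothelial cells in the Hspa12b value was not tested.

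**Figure D3:**
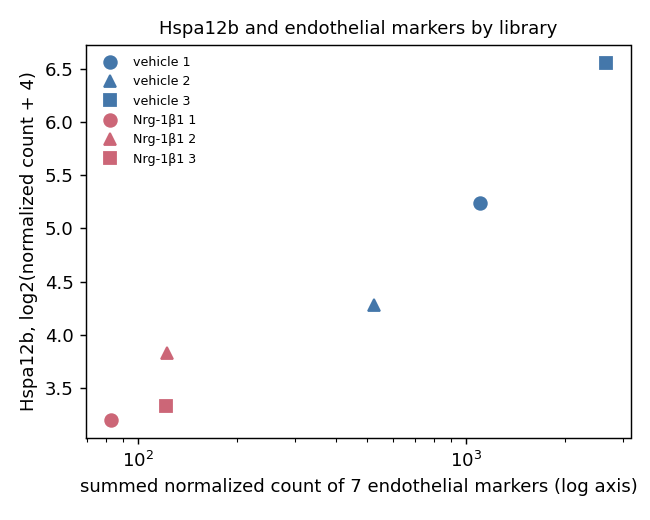
Each point is 1 of the 6 libraries, with the summed normalized count of 7 endothelial markers on a log x axis and the log2 level of Hspa12b on the y axis, vehicle in blue and Nrg-1β1 in red. All 3 vehicle libraries lie above and to the right of all 3 Nrg-1β1 libraries, whose marker sums are 82.7 to 123.

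Hsp90ab1, the constitutive cytosolic Hsp90, was the most abundant chaperone gene. Per kilobase of its principal transcript it stood first of the 74 in each of the 6 libraries, at 703 to 1332 normalized counts per kb, and made up 19.8% to 27.7% of the summed per-kilobase level of the group. Its log2 levels were 11.72, 10.81 and 11.32 with vehicle and 10.91, 10.80 and 11.40 with Nrg-1β1. The groups overlapped, and the difference of -0.25 ± 0.34 (SE) had a 95% interval of -0.97 to 0.47 and turned to 0.22 with the depth class term. Behind it per kilobase came Bag1 at ranks 2 to 4, Dnajb2 and Hsp90b1 each at ranks 2 to 5, and Hspa5 at ranks 3 to 12. Neighbours in that order exchanged places between libraries. As shares of the summed per-kilobase level, Hsp70 and Hsp110 genes took 10.0%, 8.58% and 12.8% in vehicle 1 to 3 and 8.0%, 7.66% and 5.85% in Nrg-1β1 1 to 3. Type B J proteins took 11.2%, 9.48% and 9.58% against 18.2%, 19.0% and 11.7%. These were the 2 families of 8 whose shares did not overlap between groups, one lower and one higher with Nrg-1β1. Single genes made up a large part of both. Over the 6 libraries Hspa5 alone took 1.86% to 6.39% of the summed level and Dnajb2 4.79% to 12.2%. The comparison was made after the values were seen and carries no test.

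Among 15 cytosolic cochaperones that are no members of the group, 0 passed the adjusted limma threshold, 10 differences were negative and 5 positive, and the median was -0.15. It was 0.06 after centring, -0.06 without vehicle 3 and -0.30 without Nrg-1β1 3. The lowest was Fkbp5, a glucocorticoid-induced immunophilin that binds Hsp90, with log2 levels of 6.26, 6.17 and 6.61 with vehicle and 4.62, 5.49 and 4.97 with Nrg-1β1. Its groups did not overlap, and its difference of -1.32 ± 0.38 (SE) had a limma adjusted p of 0.101. Chordc1, an Hsp90 cochaperone, was the other one with an unadjusted p under 0.05, at -0.93. Stip1 (Hop), which hands clients from Hsp70 to Hsp90, had -0.13, and Stub1 (CHIP), a ubiquitin ligase that acts on chaperone clients, had 0.43.

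J proteins of type A, the canonical Hsp70 partners, stayed close between groups, with a median difference of -0.21 over 4 genes that was 0.00 after centring on library medians, 0.23 with the depth class term and -0.11 without Nrg-1β1 3. Dnaja2 had the smallest spread within groups of the 36 chaperone genes with at least 10 reads everywhere, an SD of 0.0765. At 7.62, 7.61 and 7.50 with vehicle and 7.27, 7.39 and 7.23 with Nrg-1β1 its groups were apart, yet the difference was only -0.28 ± 0.28 (SE; limma adjusted p 0.709). Here the SE is that of limma, which draws the spread of single genes towards that of genes of similar level. Dnaja1 was at 7.62, 6.99 and 7.22 and 7.27, 7.34 and 6.79, and Dnaja4 at 7.21, 6.04 and 7.56 and 6.15, 6.66 and 6.53, both with overlapping groups and with differences of -0.14 and -0.49 that turned to 0.14 and 0.41 with the depth class term. Dnaja3 (Tid1), a mitochondrial J protein, was at 6.57, 6.40 and 6.32 with vehicle and 7.06, 6.42 and 6.66 with Nrg-1β1, a difference of 0.29.

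Type B was the family with the most positive median, 0.09 over 11 genes, with 6 positive and 5 negative. Without Nrg-1β1 2 or without vehicle 2 the median was -0.07 and -0.09, and with the depth class term it was 0.67. Dnajb2 (HSJ1), a neuronal J protein that carries ubiquitinated clients to the proteasome, was at log2 levels of 9.12, 8.29 and 8.59 with vehicle and 9.54, 9.65 and 8.94 with Nrg-1β1. Nrg-1β1 1 and 2 lay above every control and Nrg-1β1 3 lay between vehicle 1 and vehicle 3. The difference was 0.71 ± 0.30 (SE; limma adjusted p 0.314), and it was larger, 1.09, with the depth class term. Dnajb6, which suppresses aggregation of polyglutamine proteins, was at 6.68, 5.74 and 6.09 with vehicle and 6.25, 6.14 and 6.94 with Nrg-1β1, a difference of 0.27. Dnajb4, a close relative of the heat-inducible Dnajb1, ranged from 6.67, 5.46 and 6.73 with vehicle to 7.11, 6.33 and 4.97 with Nrg-1β1 and differed by -0.15, or by 0.67 with the depth class term. Its highest and its lowest level both came from the Nrg-1β1 group.

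The type C genes, the largest family, had a median difference of -0.18 over 26 genes, with 17 negative and 9 positive. The median was 0.03 after centring and -0.06 without Nrg-1β1 1. With limma-voom it was 0.05 on 11 of the 26, and the filter on low values, which keeps 11 genes, gave -0.05 in limma. At the synapse, Dnajc5 (cysteine string protein α), which protects SNARE proteins on vesicles, was at 7.63, 8.30 and 8.40 with vehicle and 8.36, 8.44 and 8.47 with Nrg-1β1. The treated libraries lay close together and the difference was 0.31. Dnajc6 (auxilin), which uncoats clathrin vesicles in neurons, was at 7.57, 7.95 and 7.98 and 7.72, 7.30 and 7.42, a difference of -0.36 with overlapping groups. Dnajc7 (Tpr2), which binds Hsp70 and Hsp90 through TPR repeats, had close vehicle libraries, at 7.60, 7.70 and 7.65, with all of 7.22, 6.86 and 7.31 below them. Its difference was -0.52 ± 0.28 (SE; limma adjusted p 0.469).

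Dnajc11, a mitochondrial protein of the cristae-organizing MICOS complex, was the other gene, beside Dnajb9, with every Nrg-1β1 library above every vehicle library. Its log2 levels were 6.25, 4.84 and 6.13 with vehicle and 6.60, 6.58 and 6.79 with Nrg-1β1, and vehicle 2 lay far below the other controls. Reads in vehicle 1 to 3 numbered 1191, 8 and 1089. The difference was 0.92 ± 0.39 (SE; limma adjusted p 0.304) and 1.81 with the depth class term, where it rests on vehicle 2. Dnajc8, a J protein tied to splicing and named here after its values were seen, had the widest spread within groups of the 36 well-covered genes, an SD of 0.928. Its log2 levels were 7.11, 7.90 and 6.08 with vehicle and 7.11, 6.66 and 8.48 with Nrg-1β1, and its difference of 0.39 turned to -0.48 with the depth class term, -0.09 without vehicle 3 and -0.14 without Nrg-1β1 3. Dnajc4 and Dnajc24, also picked after their values were seen, had separate groups with vehicle above. The Nrg-1β1 values rested on 2, 2 and 3 reads for Dnajc4 and 2, 2 and 5 for Dnajc24, and those of vehicle 2 on 6 and 7. Their differences were -1.02 and -0.88, with limma adjusted p of 0.394 and 0.462.

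**Figure D4:**
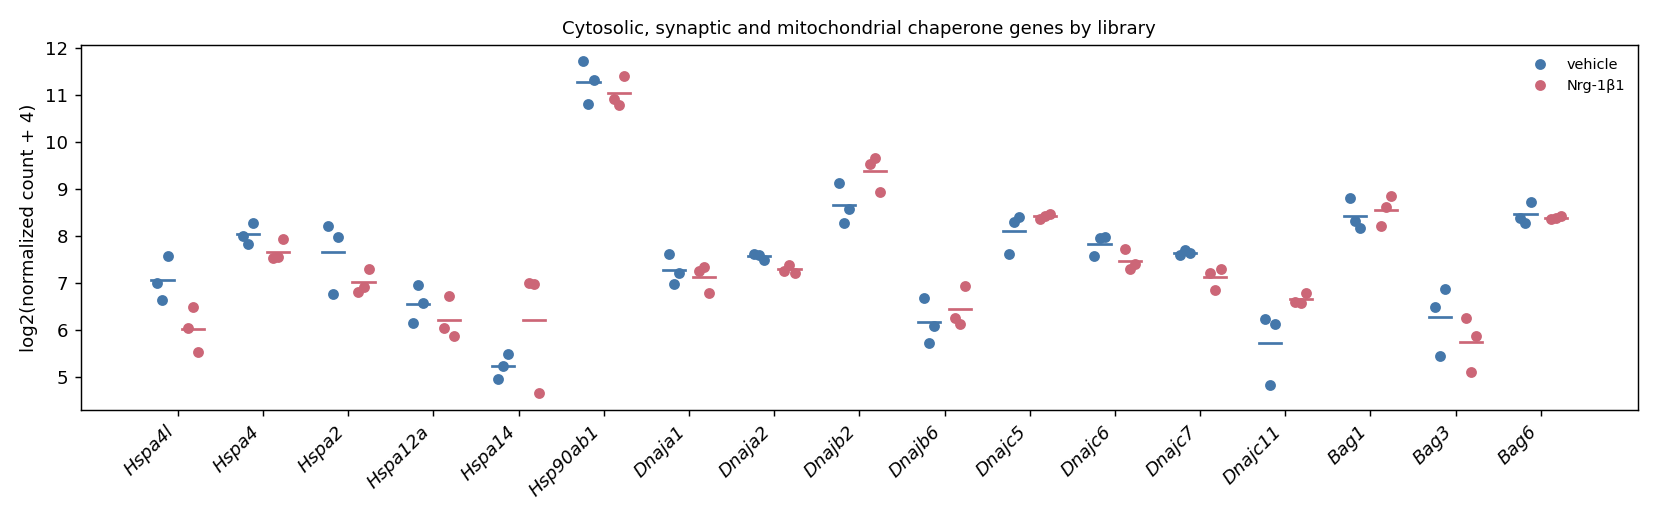
Points are the log2(normalized count + 4) level of 1 library on the y axis, vehicle in blue and Nrg-1β1 in red, with the group mean as a line, for 17 cytosolic, synaptic and mitochondrial chaperone genes. Hspa4l, Dnaja2 and Dnajc7 show separate groups with vehicle above, Dnajc11 with Nrg-1β1 above, and Hsp90ab1 is highest in all libraries.

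The chaperonin had differences in both directions, and a shift common to its genes was not tested. Its ring is built from 8 different subunits, all of which it needs, and those 8 genes had a median difference of -0.17, with 5 negative and 3 positive. Cct8 was the one subunit of the 8 with separate groups, at log2 levels of 7.39, 7.10 and 7.36 with vehicle and 6.67, 6.42 and 6.79 with Nrg-1β1. Its difference was -0.65 ± 0.30 (SE; limma adjusted p 0.358). Cct5 was at 8.14, 7.49 and 7.77 and 6.94, 6.98 and 7.54, where Nrg-1β1 3 lay just above vehicle 2, and its difference was -0.65 ± 0.30 (SE; limma adjusted p 0.372). Tcp1 (Cct1) was at 7.78, 7.61 and 7.71 with vehicle and 7.72, 6.98 and 7.63 with Nrg-1β1, and Cct4 at 7.39, 6.89 and 7.0 and 6.52, 6.92 and 7.14, with differences of -0.25 and -0.23. Cct2 ranged from 6.60, 7.39 and 7.05 with vehicle to 6.88, 6.14 and 7.68 with Nrg-1β1, a difference of -0.12 with the widest treated group of the 8. On the positive side, Cct3 was at 6.57, 6.17 and 6.12 and 6.44, 6.42 and 7.11 (difference 0.37). Cct6a was at 6.14, 6.50 and 6.73 with vehicle and 7.06, 6.58 and 6.79 with Nrg-1β1, and Cct7 at 8.0, 7.19 and 7.55 and 7.65, 7.70 and 7.89, with differences of 0.36 and 0.17. Subunits of the same complex thus lay on both sides of zero. The 95% intervals of Cct8 (-1.28 to -0.03) and Cct5 (-1.28 to -0.01) lay just below zero, and no subunit passed the adjusted threshold. Over 9 genes, with the testis-enriched Cct6b added, the median was -0.23, and it was -0.02 without Nrg-1β1 2 and -0.37 without Nrg-1β1 3.

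Levels of the 8 subunits per kilobase of principal transcript were within a few-fold of each other. The highest subunit exceeded the lowest by 5.57, 2.76 and 3.49 times in vehicle 1 to 3 and by 2.39, 2.47 and 2.36 times in Nrg-1β1 1 to 3. That ratio was lower in every Nrg-1β1 library, also with the length of all exons joined, where it was 7.03, 6.0 and 7.54 against 3.43, 3.45 and 3.74. Cct5 was the highest subunit in all 3 vehicle libraries, at 150, 95 and 116 normalized counts per kb, whereas Tcp1, Cct7 and Cct2 led in Nrg-1β1 1, 2 and 3. That order holds for the principal transcripts. With all exons joined, Cct5 led in vehicle 1, vehicle 3 and Nrg-1β1 2, and Cct2 led in the others. This ratio was looked at after the values were seen and carries no test. A list of 9 genes held prefoldin subunits, whose complex delivers actin and tubulin to the chaperonin, and other chaperonin helpers (Pdcl, Pdcl3 and Txndc9). Of the 9, 0 passed the adjusted limma threshold and the median difference was -0.12. It was 0.09 after centring and -0.01 to -0.39 with 1 library left out. Pfdn2 was the one with an unadjusted p under 0.05, at 8.93, 8.06 and 8.14 with vehicle and 8.84, 9.57 and 8.80 with Nrg-1β1, a difference of 0.69 (limma adjusted p 0.356).

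**Figure D5:**
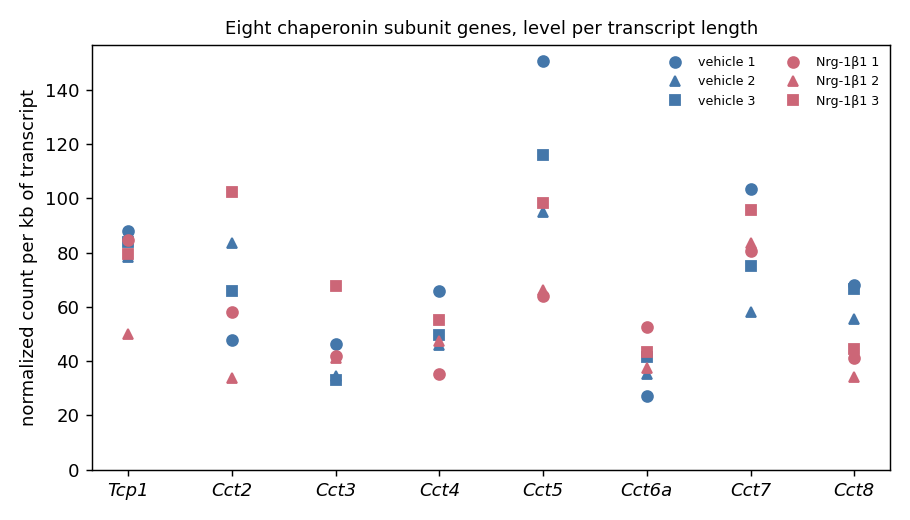
Each point is the level of 1 chaperonin subunit in 1 library, in normalized counts per kb of transcript on the y axis, vehicle in blue and Nrg-1β1 in red, with the marker shape giving the library number. The Cct5 points of vehicle 1 and 3 stand highest, at 150 and 116, and the Cct8 points of all 3 Nrg-1β1 libraries lie below those of vehicle.

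The Bag family, which includes exchange factors that bind Hsp70 through a BAG domain, had a median difference of -0.03 over 6 genes. It was 0.18 after centring and 0.09 with the depth class term. Bag6, which guards tail-anchored membrane proteins, was steady across libraries, at 8.39, 8.27 and 8.72 with vehicle and 8.36, 8.39 and 8.43 with Nrg-1β1. Its difference of -0.07, 0.12 with the depth class term, had a 95% interval of -0.63 to 0.50. Bag1, which links Hsp70 to the proteasome, was at 8.81, 8.32 and 8.17 and 8.22, 8.62 and 8.85, a difference of 0.13. Bag3, which directs clients to autophagy together with Hspb8, was at 6.50, 5.46 and 6.88 with vehicle and 6.25, 5.11 and 5.88 with Nrg-1β1, a difference of -0.54 with overlapping groups that turned to 0.28 with the depth class term. Bag2, an inhibitor of the ubiquitin ligase Stub1, was picked after its values were seen. It had 350, 3 and 360 reads with vehicle and 1, 0 and 3 with Nrg-1β1, log2 levels of 4.65, 3.73 and 4.69 and 3.20, 2.0 and 3.71, and a difference of -1.39 ± 0.58 (SE; limma adjusted p 0.299). Its groups did not overlap, but vehicle 2 and all treated libraries had at most 3 reads, a level at which a difference between them was not detectable.

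Small heat shock proteins, which hold unfolding proteins without using ATP, had a median difference of -0.03 over 7 genes, 0.18 after centring. Hspb8, the partner of Bag3, was at 6.86, 6.59 and 7.25 with vehicle and 6.67, 6.98 and 7.11 with Nrg-1β1, a difference of 0.02 with a 95% interval of -0.63 to 0.67. Hspb6 was at 4.84, 4.99 and 4.60 and 4.90, 4.61 and 4.82, a difference of -0.03. At the low end, Hspb3, Dnajc5b, Cct6b and Hspb7 had no read in any Nrg-1β1 library. Their pooled vehicle levels of 2.43, 1.26, 0.629 and 0.330 normalized counts were under the 4.18 that 3 reads over the Nrg-1β1 group would give, so a loss of them was not detectable at this depth.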

How the data were processed

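The authors' deposited table gives 1 log2 value per gene and library. Its lowest value was 2, and the values were read as log2(normalized count + 4). This offset was inferred from the values, and with it 100% of the values corresponded to whole reads within 0.02 read, so reads per library could be recovered. Reads were processed with Trimmomatic and Bowtie2, per the submitters' processing notes. Not given in the sources used here are the genome build, counter, strand setting, normalization and filters. Reads of near-identical copies, pseudogenes and overlapping genes could therefore have been split or merged. Of 27102 genes, 6779 were blank in all libraries and were left out, which left 20323. A fold change is on the log2(value + 4) scale and understates the change of low genes.

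Groups followed the labels, with 3 libraries each and 1 mouse stated per library. The main test was limma 3.58.1 (R 4.3.3) with its variance trend over mean level, fitted to all 6 libraries, without covariates, with Benjamini-Hochberg adjustment over 20323 genes and a threshold of 0.05. It was tested on simulated data. Because the deposited unit is log2, count models were run only as limma-voom on the recovered reads. Intervals are 95% limma intervals, and read floors of 3 reads cover counting error only. Levels per kilobase used the length of the principal transcript (GENCODE vM21). The members and lists were chosen with earlier results of these data known. The genes named with every library's value were the most positive and most negative of each family among genes at or above the median level, and a set list. Others were picked after their values were seen, as stated there. Alternatives were quantile normalization, centring on library medians, pseudocounts of 1 and 16, a mean normalized count of at least 50, limma-voom, read depth class as a term, the replicate number as a block and leaving out each library. Scaling to library totals was added after seeing the data.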

Additional observations from a re-analysis of the deposited data

How the results depend on the processing

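The count of chaperone genes past the adjusted p of 0.05 in limma was 0 in each direction under quantile normalization, centring, both pseudocounts, the filter on low values, limma-voom, the depth class term, scaling to library totals and every fit with 1 library left out (range 0 to 0). With the replicate number as a block it was 2 lower (Hspa5, adjusted p 0.011, and Hspa12b, 0.042) and 0 higher, and the count over all genes was 627 in place of 216. The labels do not say that the numbers pair samples. Correlations of same-numbered libraries, taken on deviations from the group means, were -0.27, -0.07 and -0.30. With 3 libraries per group such deviations depend on each other, so these correlations cannot decide whether the numbers pair samples. The median difference over the chaperone genes, -0.18, was 0.036 after centring on library medians, where that of all genes was 0.25, -0.10 with limma-voom and -0.041 with the depth class term, and -0.182 to -0.091 with 1 library left out. The count over all genes was 49 with the filter on low values, 1 with limma-voom, 65 with quantile normalization, 499 after centring, 129 and 168 with pseudocounts of 1 and 16, 0 with the depth class term and 0 to 56 with 1 library left out. The cause of these shifts was not tested, apart from the smaller number of genes or libraries that the filter, limma-voom and the left-out libraries bring with them. Of 43 chaperone genes given with their own difference, 11 changed sign in at least 1 fit with a library left out, 10 with the depth class term, 3 with quantile normalization (Bag1, Hspb6 and Hspb8) and 2 of 36 with limma-voom (Cct2 and Hspb8), none of them past the threshold. Centring turned 6 by construction (Bag6, Cct2, Dnaja1, Dnajb11, Dnajb4 and Hspb6). Depth limits all low genes, since 1 read in a Nrg-1β1 library is worth at least 3.04 normalized counts.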

Other observations

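Of the 13 genes that the choice of symbols left out by name, all had values, 3 fell by the limma test with Nrg-1β1, 0 rose and 10 did not pass. By cellular role, the 6 chaperone genes tied to the ribosome or the nucleus had a median difference of 0.13 on the log2 scale, and the 4 of the mitochondria 0.11. Without Nrg-1β1 3 they were -0.13 and -0.03, and the first was also negative with the depth class term (-0.24), without vehicle 3 (-0.16) and with a pseudocount of 1 (-0.02). The 3 genes of synaptic vesicles, clathrin and endosomes had a median of -0.36, beside 0.03 over all genes, which was -0.05 without vehicle 3 and -0.08 without Nrg-1β1 3. None of these groups held a gene past the threshold, by limma with adjustment over all genes. Vehicle 2 lay below both other vehicle libraries in 42 of the 74 chaperone genes (56.8%), beside 38.4% of all genes.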
